A study of Homo sapiens with 4 samples.

Results

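The genes described here are 40 genes of the unfolded protein response (UPR) and the secretory pathway, chosen by symbol as a fixed list: 4 sensors and transducers of endoplasmic reticulum (ER) stress, 11 ER chaperones and co-chaperones, 6 protein disulfide isomerases, 7 genes of ER-associated degradation (ERAD), 9 genes of the translocon and signal peptidase, and 3 plasma cell genes. Earlier results of these data were known when the list was chosen. All 40 were matched by Ensembl ID among the 43450 genes listed. They were compared between 2 libraries from BLaER1 cells exposed to antisense GapmeRs against the long non-coding RNA HAL7 (HAL7 knockdown, replicates 0 and 1) and 2 control libraries (replicates 0 and 1). BLaER1 is 1 human line of B cell leukaemia origin. It was engineered with a C/EBPα transgene whose induction turns the cells into macrophage-like cells, so both groups share that transgene, and the labels name no inducing agent. The 3 GapmeRs were added to the medium without transfection. The sources used here give neither the treatment of the control cells nor the length of the knockdown. They do not say that replicates were separate cultures either, so the p-values speak for the spread among these 4 libraries, and that spread may be technical.

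The UPR adjusts the folding capacity of the ER to its load. IRE1 (ERN1), PERK (EIF2AK3) and ATF6 sense misfolded protein in the ER membrane: IRE1 splices the XBP1 transcript into the form that encodes an active transcription factor, PERK slows translation and lets ATF4 be made, and ATF6 is cut in the Golgi to release its own transcription factor domain. XBP1 and ATF6 induce chaperones, oxidoreductases and ERAD genes, and XBP1 is needed for B cells to become antibody-secreting plasma cells, a step driven by the repressor Blimp-1 (PRDM1).

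Values are FPKM (fragments per kilobase and M mapped fragments), so levels can be compared between genes. The libraries stood for about 107 and 96.0 M fragments in the knockdown replicates and 60.3 and 127 M in the control replicates, if the authors' scaling left totals unchanged, as read from the steps between low values. HAL7 itself stood at 0.475 and 0.347 FPKM in knockdown and 0.726 and 0.613 FPKM in control libraries, lower in both knockdown libraries. The ratio of the group means was 0.614. After 1 was added to each FPKM, which shrinks changes at so low a level, the log2 change was -0.24. Its limma p was 0.059 and its adjusted p 0.32, so the knockdown of the targeted gene did not pass the test. The cells carried the transcripts of an early B cell: DNTT, the terminal transferase gene of V(D)J recombination, stood between 1392 and 1478 FPKM in the 4 libraries, and all 10 B cell and pre-B markers were above 6 FPKM on average. Of these 10 markers, 8 had negative log2 changes, as had 6877 of the 12935 genes tested. Without overlap, 6 of the 10 lay lower in knockdown and 1 higher, against 27.7% and 22.5% of all genes tested. Their median log2 change was -0.06, with 0 past the adjusted p in limma. With the GC trend described below removed, the median was -0.05. RAG1, a subunit of the V(D)J recombinase, stood at 216 and 191 FPKM in knockdown and 240 and 252 FPKM in control libraries, a log2 change of -0.27 at a limma p of 0.0075 and an adjusted p of 0.20. Of 9 matched macrophage markers, 2 passed the filter of a mean of at least 1 FPKM, CSF1R and CD68. S100A8 and S100A9 were listed at 0 in all libraries. The summed level of the macrophage markers was 36.6 and 40.3 FPKM in knockdown and 39.5 and 38.5 FPKM in control libraries, most of it from CSF1R, which averaged 35.9 ± 2.95 FPKM in knockdown and 35.6 ± 1.03 FPKM in control libraries (SD, n = 2 each). CD68 averaged 2.21 ± 0.305 FPKM in knockdown and 2.97 ± 0.336 FPKM in control libraries (SD, n = 2 each) and was lower in both knockdown libraries. Its log2 change was -0.31, with a limma p of 0.024 and an adjusted p of 0.24. Of 6 T and NK cell markers 1 passed the filter, NKG7, at 21.9 and 17.2 FPKM in knockdown and 27.5 and 27.0 FPKM in control libraries, with a limma adjusted p of 0.19. The part of these marker differences in the results below was not tested.

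The UPR and secretory genes were abundant in these cells, and their levels in knockdown and control libraries lay close together. Of the 40 genes, 39 passed the filter, and PRDM1 did not. In limma, 0 of the 39 passed an adjusted p of 0.05, where 4 of 12935 genes tested did (0.0309%). At an unadjusted p under 0.05, 2 of the 39 genes (5.13%) were found, JCHAIN and SEC61G, both higher in knockdown libraries, against 16.6% of all genes tested, 7.25% higher and 9.35% lower. Log2 changes, on the log2(FPKM + 1) scale, were positive in 20 genes and negative in 19, from -0.21 to 0.50, with a median of 0.00, beside a median of -0.01 over all genes tested. By role, the median log2 change was -0.07 over the 4 sensors and transducers, 0.01 over the chaperones, -0.01 over the disulfide isomerases, 0.02 over the ERAD genes and 0.00 over the translocon and signal peptidase genes. These medians moved with single libraries: without knockdown replicate 0 that of the chaperones was -0.04 and that of the ERAD genes -0.03, without knockdown replicate 1 that of the ERAD genes was 0.09, without control replicate 0 that of the disulfide isomerases was -0.05, and without control replicate 1 that of the translocon and signal peptidase genes was -0.03. The median size of the change was 0.0615 in these genes and 0.0799 over all genes tested.

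The intervals describe the spread among these 4 libraries. Since that spread may be technical, they set no limit on a change between separate cultures. Adding 1 to each FPKM also shrinks the changes of genes at low level. The log2 change of ERN1 was -0.18, and -0.25 with 0.1 added instead. For 38 of the 39 genes (97.4%) the 95% interval of the change, taken for each gene on its own, lay within a factor of 1.5 in either direction, as it did for 96.6% of all genes tested; JCHAIN was the exception. For 28 genes (71.8%) it lay within a factor of 1.2, against 53.3% of all genes tested, and the other 11 were ERN1, DNAJB9, MANF, PDIA3, SEL1L, DERL1, DERL2, SEC61G, SPCS1, SPCS2 and JCHAIN. The median half-width of the interval was 0.143 in these genes and 0.166 over all genes tested, and the median levels behind them were 49.8 FPKM over the 40 genes and 12.5 FPKM over all genes tested. The libraries of the 2 groups did not overlap in 16 of the 39 genes (41.0%), 6 higher and 10 lower in knockdown, beside 50.3% of all genes tested, 22.5% higher and 27.7% lower. Single libraries set the size of many of these differences. When each library was left out in turn, the log2 change turned sign in 21 of the 39 genes, and in 0 of the 12 genes of smallest p. That 0 is no sign of stability. The groups do not overlap in any of the 12 but SEL1L, and leaving out a library then cannot turn the sign. In 8 of those 12 the log2 change moved by more than 1.5 times, the exceptions being XBP1, SDF2L1, CRELD2 and SEC61A1. In bulk RNA, a change in the number of cells that express a gene and a change in RNA per cell cannot be told apart.

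**Figure D1:**
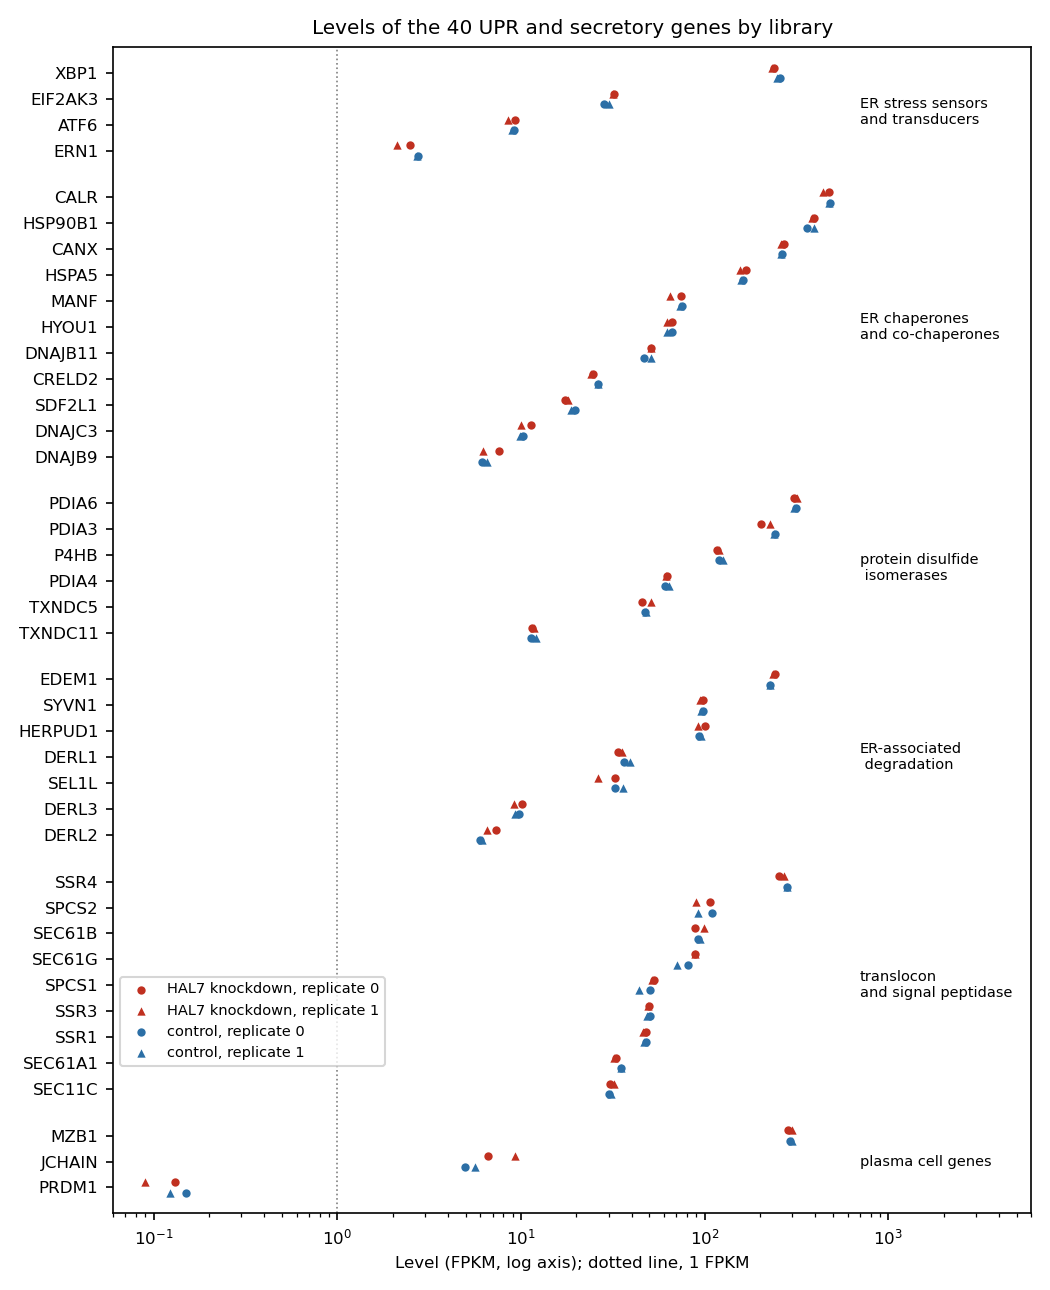
Level of each of the 40 genes in FPKM (log axis) in every library, ordered by role and by level within a role; red, HAL7 knockdown; blue, control; circles, replicate 0; triangles, replicate 1. Levels run over more than 3 orders of magnitude between genes, from PRDM1 under 0.2 FPKM to CALR at 443 to 482 FPKM, while the 4 libraries of most genes nearly coincide.

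The 40 genes together made up 0.511% and 0.481% of the summed FPKM in knockdown libraries and 0.495% and 0.513% in control libraries, with no separation of the groups. ER chaperones summed to 1562 and 1477 FPKM in knockdown and 1517 and 1534 FPKM in control libraries. Disulfide isomerases summed to 746 and 790 FPKM in knockdown libraries and to 794 FPKM in each control library, lower in both knockdown libraries. Sensors and transducers, most of whose sum is XBP1, were also lower in both, at 281 and 276 FPKM in knockdown and 299 and 290 FPKM in control libraries. The sums of the other roles overlapped between groups. Translocon and signal peptidase genes summed to 752 and 758 FPKM in knockdown and 776 and 745 FPKM in control libraries.

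**Figure D2:**
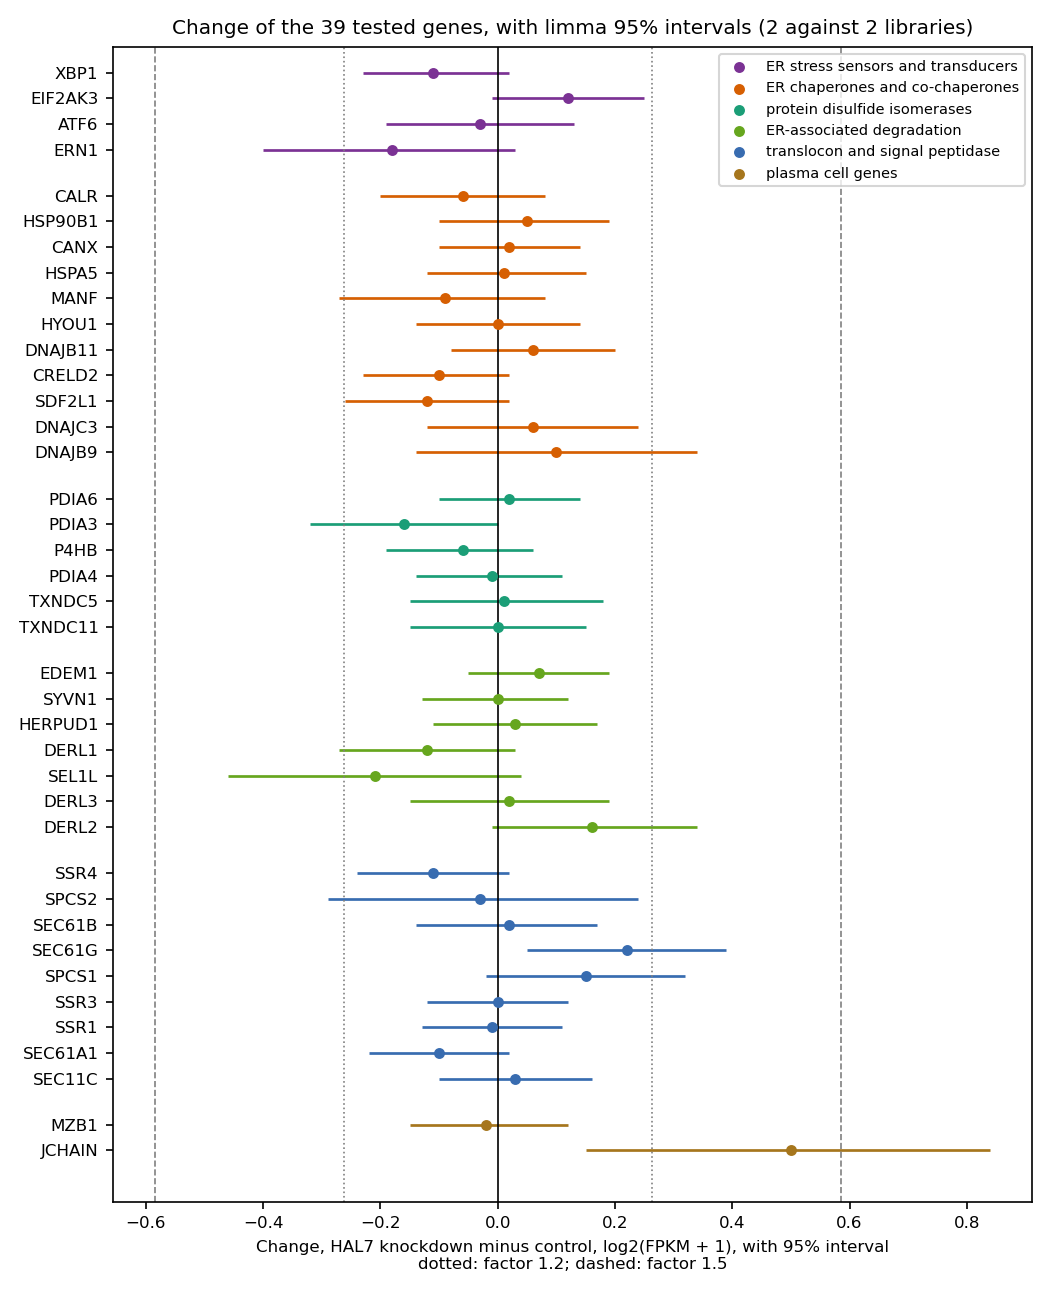
Change of each of the 39 tested genes (HAL7 knockdown minus control, log2(FPKM + 1)) with its 95% limma interval from 2 against 2 libraries, coloured by role; dotted lines mark a factor of 1.2 and dashed lines a factor of 1.5. Intervals of JCHAIN and SEC61G lie above 0, and that of JCHAIN alone reaches past a factor of 1.5.

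Among the sensors and transducers, XBP1 was far more abundant than the sensors that act on it or beside it. XBP1 stood at 237 and 233 FPKM in knockdown and 258 and 248 FPKM in control libraries, a ratio of 0.928. Its log2 change was -0.11 ± 0.05 (SE), at a limma p of 0.076 (adjusted p of 0.35), and both knockdown libraries lay below both control libraries. The table sums all XBP1 transcripts, so the IRE1-spliced form cannot be separated from the unspliced one. ERN1, the kinase and nuclease IRE1, stood at 2.47 and 2.10 FPKM in knockdown and 2.75 and 2.71 FPKM in control libraries, its log2 change being -0.18 ± 0.09 (SE) at a limma p of 0.078. Without knockdown replicate 0 it was -0.27, and without knockdown replicate 1 it was -0.10, at limma p-values of 0.037 and 0.33. It was the lowest of the 39 tested genes and was also lower in both knockdown libraries. EIF2AK3, the kinase PERK, stood at 32.1 and 31.8 FPKM in knockdown and 28.4 and 30.3 FPKM in control libraries, higher in both knockdown libraries, and its log2 change was 0.12 ± 0.06 (SE) at a limma p of 0.073, and 0.07 without control replicate 0. ATF6 overlapped between groups, at 9.23 and 8.47 FPKM in knockdown and 9.11 and 8.94 FPKM in control libraries. None of these 4 genes passed over all genes, and each 95% interval included no change.

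The ER chaperones included the most abundant of the 40 genes. CALR, the calcium-binding lectin chaperone calreticulin, ranked 173 of all genes listed and stood at 475 and 443 FPKM in knockdown and 482 and 475 FPKM in control libraries, with a log2 change of -0.06 and a 95% interval from -0.20 to 0.08. HSP90B1, the ER paralogue of HSP90, stood at 396 and 382 FPKM in knockdown and 361 and 392 FPKM in control libraries. HSPA5, the Hsp70 chaperone BiP that also holds the sensors inactive, stood at 167 and 155 FPKM in knockdown and 161 and 158 FPKM in control libraries. The groups overlapped in both, and the 95% interval of the fold for HSPA5 ran from 0.919 to 1.11. CANX, the membrane-bound partner of calreticulin, had 271 and 260 FPKM in knockdown and 263 and 260 FPKM in control libraries.

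The co-chaperones and smaller ER stress proteins were less abundant, with log2 changes from -0.12 for SDF2L1 to 0.10 for DNAJB9. SDF2L1, a component of ER chaperone complexes, stood at 17.3 and 18.1 FPKM in knockdown and 19.7 and 18.8 FPKM in control libraries, with a limma p of 0.089. CRELD2, an ER stress-induced protein that can be secreted, stood at 24.8 and 24.0 FPKM in knockdown and 26.2 and 26.3 FPKM in control libraries, also with a limma p of 0.089. In both genes the knockdown libraries were the lower ones, but with the GC trend described below removed from each library the log2 change was 0.00 for SDF2L1 and -0.04 for CRELD2, against -0.12 and -0.10 before, at limma p-values of 0.99 and 0.48. MANF, an ER stress-induced secreted protein, had 74.2 and 64.9 FPKM in knockdown and 75.0 and 73.2 FPKM in control libraries, and its knockdown libraries differed by more than the groups did. HYOU1, the nucleotide exchange factor of BiP, averaged 64.4 FPKM in both groups. The J-domain partners of BiP, DNAJB9, DNAJB11 and DNAJC3, had ratios of 1.09, 1.04 and 1.05, and their groups overlapped.

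Promoter sequence from RefSeq (GRCh38.p14, 250 bases before to 50 after the annotated start) was matched for 36 of the 40 genes, in 48 windows because some genes have several starts. It was searched on both strands for the ER stress response element ERSE, which is CCAAT and CCACG with 9 bases of any kind between them, and for ERSE-II, which is ATTGG and CCACG with 1 base between them. These are the elements through which ATF6, with NF-Y at the CCAAT part, acts on chaperone promoters. ERSE was present in 7 of the 36 genes and in 0.0916% of the 27305 genes with a window, and ERSE-II in 3 of the 36 genes and in 0.0696% of genes. The matches are shown 5′ to 3′ on the gene's strand because they single out the promoters that carry a known type of ER stress element. Capitals mark the match, and where the capitals begin with CGTGG the element lies on the opposite strand.
HSPA5 (chr9:125241385-125241415, minus strand): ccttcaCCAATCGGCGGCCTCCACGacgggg
HSP90B1 (chr12:103930210-103930240, plus strand): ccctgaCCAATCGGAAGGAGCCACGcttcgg
HSP90B1 (chr12:103930315-103930345, plus strand): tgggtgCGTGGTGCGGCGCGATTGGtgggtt
CALR (chr19:12938378-12938408, plus strand): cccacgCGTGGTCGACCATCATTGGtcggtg
CANX (chr5:179698772-179698802, plus strand): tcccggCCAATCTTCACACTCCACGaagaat
PDIA6 (chr2:10812847-10812877, minus strand): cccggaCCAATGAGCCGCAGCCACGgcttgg
CRELD2 (chr22:49918548-49918578, plus strand): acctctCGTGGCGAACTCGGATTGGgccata
XBP1 (chr22:28800597-28800627, minus strand): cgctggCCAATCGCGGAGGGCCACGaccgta
HYOU1 (chr11:119057374-119057396, minus strand): ccgtgaCGTGGTCCAATcccagg
HYOU1 (chr11:119057268-119057290, minus strand): ctgggaCGTGGTCCAATgagtac
HERPUD1 (chr16:56932019-56932041, plus strand): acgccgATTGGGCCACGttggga
SDF2L1 (chr22:21642108-21642130, plus strand): cggaagCGTGGACCAATcaaaac

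The 10 genes with a match had log2 changes from -0.12 to 0.05, 6 positive and 4 negative, with a median of 0.01. The 25 tested genes with a window and no match ran from -0.21 to 0.50, 12 positive and 13 negative. A match is a description of the letters and not evidence of binding. The HSPA5 window is given whole, since BiP is the standard readout of ER stress. Its only exact match lies 66 bases before the annotated start, counted from the first base of the match. Near copies of the elements were not searched for.
HSPA5 (chr9:125241294-125241593, minus strand): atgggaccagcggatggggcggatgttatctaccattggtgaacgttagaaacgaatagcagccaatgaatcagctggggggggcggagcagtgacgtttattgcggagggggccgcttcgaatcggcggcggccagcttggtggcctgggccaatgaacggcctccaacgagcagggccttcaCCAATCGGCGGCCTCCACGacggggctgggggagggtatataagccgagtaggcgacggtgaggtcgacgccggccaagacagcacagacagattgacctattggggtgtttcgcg

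Among the protein disulfide isomerases, which form and exchange disulfide bonds in client proteins, PDIA3 had the smallest p. PDIA3, the isomerase that works with calreticulin and calnexin and sits in the MHC class I loading complex, stood at 203 and 228 FPKM in knockdown and 242 and 238 FPKM in control libraries. Both knockdown libraries were the lower ones and differed from each other more than the control libraries did. The log2 change was -0.16 ± 0.07 (SE), with a limma p of 0.054 and an adjusted p of 0.31. It was -0.07 without knockdown replicate 0 and -0.24 without knockdown replicate 1, at limma p-values of 0.22 and 0.0047. A processed pseudogene, PDIA3P1, stood at 5.79 and 5.35 FPKM in knockdown and 4.99 and 4.77 FPKM in control libraries, higher in knockdown, and whether the 2 genes share reads was not tested. PDIA6, the most abundant isomerase, stood at 308 and 318 FPKM in knockdown and 313 and 306 FPKM in control libraries, a ratio of 1.01. P4HB, the archetypal isomerase, was lower in both knockdown libraries, at 116 and 119 FPKM against 120 and 126 FPKM in control libraries, with a limma p of 0.27. PDIA4, TXNDC5 and TXNDC11, further members of the thioredoxin-like family, had ratios of 0.991, 1.01 and 1.00 and overlapping groups.

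The ERAD genes, whose products carry misfolded protein out of the ER for degradation, spanned a wide range of levels. EDEM1, a lectin-like protein that extracts misfolded glycoproteins from folding cycles, stood at 242 and 235 FPKM in knockdown and 228 and 227 FPKM in control libraries. It was higher in both knockdown libraries, and its log2 change was 0.07 ± 0.05 (SE) at a limma p of 0.20. SYVN1 (HRD1), the ubiquitin ligase of the pathway, stood at 97.8 and 94.2 FPKM in knockdown and 97.6 and 95.0 FPKM in control libraries, nearly the same pair of values. SEL1L, the adaptor that holds SYVN1 in its complex, stood at 32.5 and 26.3 FPKM in knockdown and 32.4 and 35.7 FPKM in control libraries. Only knockdown replicate 1 was low, the groups overlapped, and the log2 change of -0.21 ± 0.10 (SE) had a limma p of 0.086. It was -0.36 without knockdown replicate 0 and -0.06 without knockdown replicate 1. HERPUD1, an ER stress-induced scaffold of the same complex, had 100 and 92.0 FPKM in knockdown and 92.8 and 95.5 FPKM in control libraries.

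The derlins, multispanning membrane proteins of the ERAD channel, differed in direction. DERL1 was lower in both knockdown libraries, at 33.8 and 35.6 FPKM against 36.3 and 39.3 FPKM in control libraries, with a limma p of 0.098. DERL2 was higher in both, at 7.30 and 6.56 FPKM in knockdown against 5.98 and 6.15 FPKM in control libraries, and its log2 change was 0.16 ± 0.07 (SE), at a limma p of 0.063 and an adjusted p of 0.33, and 0.10 without knockdown replicate 0. The ratio of DERL1 to DERL2 was 4.63 and 5.42 in knockdown and 6.06 and 6.38 in control libraries. This ratio was picked after the values were seen, and neither gene passed over all genes. DERL3, the derlin typical of secretory cells, was at 10.1 and 9.11 FPKM in knockdown and 9.70 and 9.24 FPKM in control libraries.

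In the translocon, SEC61A1 encodes the pore that nascent chains pass through, and SEC61B and SEC61G its small partner subunits. SEC61G stood at 88.6 and 88.3 FPKM in knockdown and 81.2 and 70.8 FPKM in control libraries. Both knockdown libraries were higher, and the control libraries differed from each other by more than the nearer of them did from knockdown. The ratio was 1.16 and the log2 change 0.22 ± 0.07 (SE), with a limma p of 0.020 and an adjusted p of 0.24. SEC61G (ENSG00000132432.9) lies on chromosome 7 from 54752250 to 54759974 on GRCh38. The log2 change was 0.32 without control replicate 0 and 0.12 without control replicate 1, at limma p-values of 0.0053 and 0.15. SEC61A1 was on the other side, at 33.0 and 32.0 FPKM in knockdown and 34.9 and 35.0 FPKM in control libraries, and its log2 change was -0.10 ± 0.05 (SE) at a limma p of 0.091. SEC61B overlapped, at 88.7 and 99.5 FPKM in knockdown and 91.7 and 94.2 FPKM in control libraries.

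The translocon-associated (TRAP) complex and signal peptidase showed uneven levels among subunits and small differences between groups. SSR4, the delta subunit of TRAP, stood at 253 and 269 FPKM in knockdown and 280 and 282 FPKM in control libraries, and its log2 change was -0.11 ± 0.05 (SE) at a limma p of 0.093. SSR1 and SSR3, the alpha and gamma subunits, stood between 46.4 and 50.4 FPKM in all libraries, with ratios of 0.991 and 0.999. The level of SSR4 was 5.31 and 5.81 times that of SSR1 in knockdown and 5.84 and 6.02 times in control libraries. SPCS1, a subunit of the signal peptidase complex that cuts off signal peptides, stood at 53.0 and 51.7 FPKM in knockdown and 50.3 and 44.1 FPKM in control libraries, higher in knockdown, and its log2 change was 0.15 ± 0.07 (SE) at a limma p of 0.079. It was 0.24 without control replicate 0 and 0.06 without control replicate 1, at limma p-values of 0.019 and 0.48. SPCS2 differed by replicate number rather than by group, at 107 and 90.1 FPKM in knockdown and 109 and 91.6 FPKM in control replicates 0 and 1. Its log2 gap between replicates 0 and 1 was 0.25 in each group, against a log2 change between groups of -0.03. SEC11C, a catalytic subunit, stood between 30.1 and 31.9 FPKM throughout.

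The plasma cell genes had the widest range of levels and the largest single change. MZB1, an ER co-chaperone that helps immunoglobulin assembly and secretion, stood at 283 and 299 FPKM in knockdown and 291 and 298 FPKM in control libraries. PRDM1, the driver of plasma cell fate, stood at 0.130 and 0.0892 FPKM in knockdown and 0.150 and 0.123 FPKM in control libraries, too low to be tested. JCHAIN, which joins IgM and IgA into polymers, stood at 6.57 and 9.29 FPKM in knockdown and 4.94 and 5.59 FPKM in control libraries. Both knockdown libraries lay above both control libraries, and the 2 knockdown values lay farther apart than the nearest values of the groups. JCHAIN averaged 7.93 ± 1.93 FPKM in knockdown and 5.27 ± 0.459 FPKM in control libraries (SD, n = 2 each), a ratio of 1.51. Its log2 change was 0.50 ± 0.14 (SE), with a 95% interval from 0.15 to 0.84, a limma p of 0.013 and an adjusted p of 0.21, so it did not pass over all genes. Without knockdown replicate 0 the log2 change was 0.72 and without knockdown replicate 1 it was 0.27. It was 0.42 without control replicate 0 and 0.57 without control replicate 1. With no filter on low values it was 0.50, at a limma p of 0.055 and an adjusted p of 0.48.

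JCHAIN (ENSG00000132465.6) lies on chromosome 4 from 70655541 to 70681817 on GRCh38. Its promoter window is shown as that of the gene with the largest change among the 40, and it holds neither ERSE nor ERSE-II.
JCHAIN (chr4:70666459-70666758, minus strand): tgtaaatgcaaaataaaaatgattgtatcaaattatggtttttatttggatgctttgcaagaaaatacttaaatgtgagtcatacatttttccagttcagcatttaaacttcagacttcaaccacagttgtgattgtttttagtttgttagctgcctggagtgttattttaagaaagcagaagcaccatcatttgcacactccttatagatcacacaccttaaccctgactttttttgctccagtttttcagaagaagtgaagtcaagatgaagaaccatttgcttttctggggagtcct

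Plasma cell markers beyond the 40 genes also varied widely in level. Of 12 markers, which include XBP1, MZB1, JCHAIN and PRDM1, 8 passed the filter. Their median log2 change was 0.07, with 0 past the adjusted p. At an unadjusted limma p under 0.05, 2 were higher, JCHAIN and IRF4 (25.0%, against 7.25% of all genes tested), and 0 lower (against 9.35%). IRF4, a transcription factor of both pre-B cells and plasma cells, stood at 51.0 and 55.6 FPKM in knockdown and 46.1 and 43.2 FPKM in control libraries, with a limma adjusted p of 0.20. TNFRSF17 (BCMA), a receptor of plasma cells, was between 0.277 and 0.388 FPKM, and SLAMF7 was listed at 0 in 3 libraries and at 0.00928 FPKM in knockdown replicate 0. PAX5, the B cell factor that opposes plasma cell fate, stood at 82.7 and 81.8 FPKM in knockdown and 89.0 and 83.7 FPKM in control libraries, lower in both knockdown libraries. BCL6, another repressor of that fate, was higher in both, at 40.5 and 48.1 FPKM in knockdown and 38.2 and 40.2 FPKM in control libraries, with a log2 change of 0.17 at a limma p of 0.096. Of the 4 tested factors that repress plasma cell fate, 0 had an unadjusted limma p under 0.05, where 16.6% of all genes tested did.

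**Figure D3:**
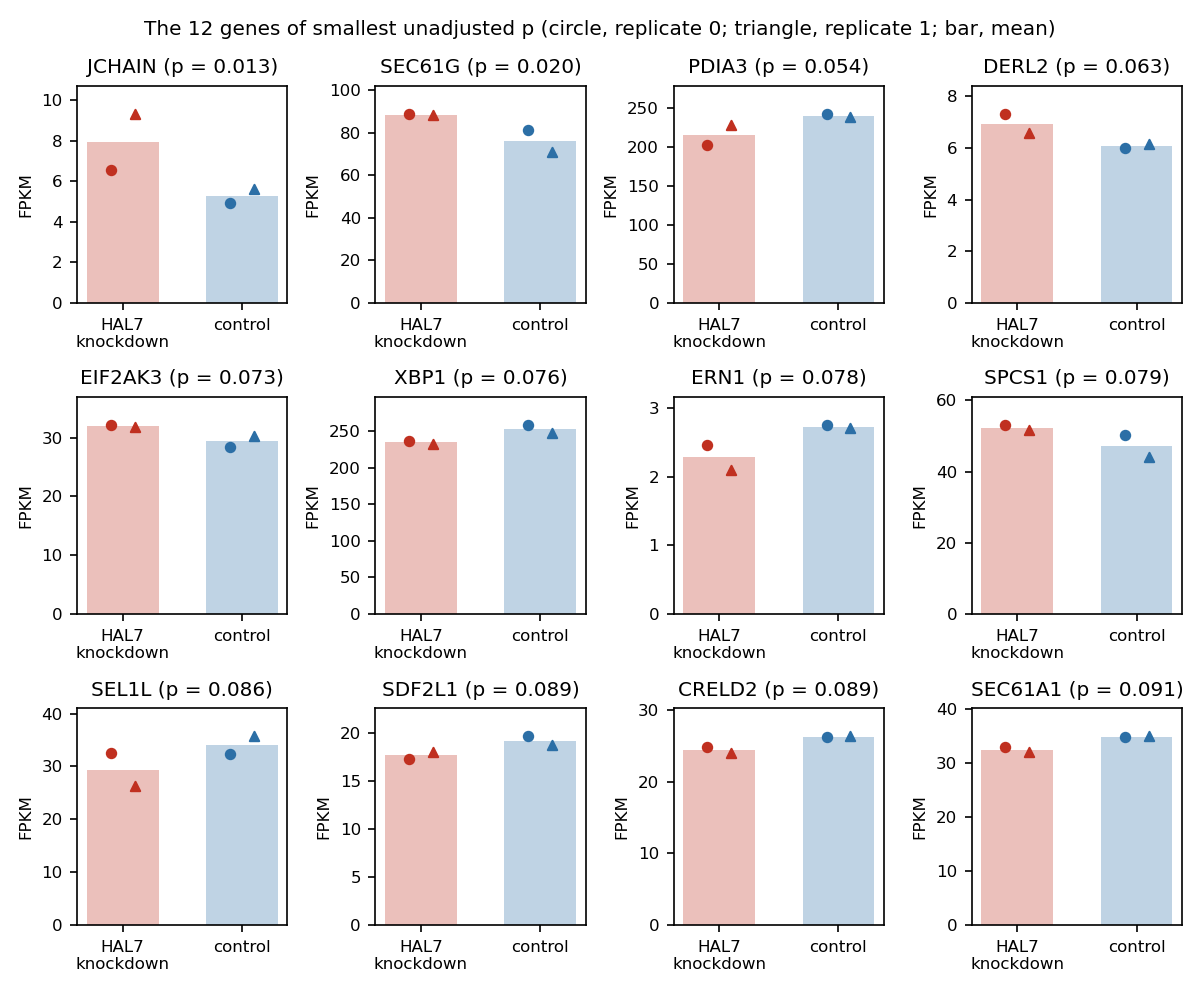
Levels in FPKM of the 12 genes of smallest unadjusted limma p among the 39 tested, with the mean of each group as a bar (circles, replicate 0; triangles, replicate 1). JCHAIN has the largest ratio, 1.51; SEL1L is the only one of the 12 whose groups overlap.

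The other genes of the pathway, taken from lists of the same functions, likewise held 0 genes past the adjusted p in limma, out of 133 tested of 139 listed, with 7 higher and 6 lower at an unadjusted p under 0.05 (9.77% in all, against 16.6% of all genes tested) and a median log2 change of 0.00. These lists too were chosen with earlier results of these data known, so their shares are descriptions. Among 14 tested genes of the PERK arm and ER stress-induced death, 4 were lower at an unadjusted p under 0.05 (28.6%, against 9.35% of all genes tested) and 0 higher (against 7.25%), with a median of -0.06. These 4 were CEBPB, TRIB3, PPP1R15A and BBC3, with transcript GC contents of 66.2%, 62.0%, 57.7% and 64.4%. The median of the 14 genes was also -0.06 with the GC trend described below removed. The part of that trend in these 4 differences was not tested. CEBPB, a C/EBP factor that also marks myeloid cells, stood at 13.1 and 16.1 FPKM in knockdown and 18.4 and 22.4 FPKM in control libraries, with a limma adjusted p of 0.20. TRIB3, a pseudokinase induced by ATF4 and CHOP, stood at 97.9 and 86.1 FPKM in knockdown and 106 and 113 FPKM in control libraries, with a limma adjusted p of 0.21. PPP1R15A (GADD34), the phosphatase subunit that ends the PERK signal, stood at 36.2 and 30.4 FPKM in knockdown and 39.7 and 41.1 FPKM in control libraries, with a limma adjusted p of 0.22. ATF4 and DDIT3 (CHOP), the transcription factors of this arm, had log2 changes of -0.03 and -0.09 with 95% intervals that included no change.

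Among 27 tested genes of the rest of the translocon, the signal recognition particle and the oligosaccharyltransferase, 4 were higher at an unadjusted p under 0.05 (14.8%, against 7.25% of all genes tested) and 0 lower (against 9.35%), with a median of 0.01. These 4 were SRP9, SEC63, OSTC and TRAM1, with transcript GC contents of 41.1%, 38.6%, 43.0% and 44.5%. The median of the 27 genes was 0.00 with the GC trend removed. The part of that trend in these 4 differences was not tested either. SRP9, a subunit of the signal recognition particle, stood at 96.7 and 94.5 FPKM in knockdown and 77.9 and 62.1 FPKM in control libraries, with a log2 change of 0.45 and a limma adjusted p of 0.19. SEC63, a translocon partner that recruits BiP, stood at 68.6 and 70.3 FPKM in knockdown and 59.5 and 61.1 FPKM in control libraries, with a limma adjusted p of 0.20. OSTC, a subunit of the oligosaccharyltransferase, stood at 92.6 and 92.8 FPKM in knockdown and 84.1 and 82.6 FPKM in control libraries, with a limma adjusted p of 0.22. In the other ERAD genes, 1 of 26 was higher at an unadjusted p under 0.05 (3.85%, against 7.25% of all genes tested). It was the ubiquitin ligase gene RNF139, at 33.6 and 34.0 FPKM in knockdown and 30.5 and 26.4 FPKM in control libraries. In other folding genes 1 of 19 was higher, DNAJC10, and 1 lower, QSOX1 (5.26% each, against 7.25% and 9.35% of all genes tested). DNAJC10, an ER reductase with a J domain, had 48.8 and 46.1 FPKM in knockdown and 42.5 and 42.7 FPKM in control libraries. QSOX1, a sulfhydryl oxidase, had 14.8 and 15.0 FPKM in knockdown and 16.7 and 16.5 FPKM in control libraries. Among 10 tested genes of the ATF6 family and its processing, 1 was higher at an unadjusted p under 0.05 (10.0%, against 7.25% of all genes tested). It was NFYB, a subunit of the CCAAT-binding factor NF-Y. NFYB stood at 34.1 and 34.3 FPKM in knockdown and 28.7 and 29.3 FPKM in control libraries, with a limma adjusted p of 0.19.

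Transcript GC content moved with the direction of the changes. Across the 39 genes the Spearman rho between log2 change and GC content was -0.44, and across 12499 genes tested it was -0.43; the points share the same 4 libraries, and these are descriptions. SEC61G, DNAJB9 and JCHAIN had the lowest GC content, at 40.1%, 40.4% and 40.5%, and SDF2L1, with a log2 change of -0.12, had the highest, at 66.2%. With the GC trend removed from each library, the log2 change was 0.43 for JCHAIN, at a limma p of 0.029, and 0.15 for SEC61G, at a limma p of 0.067. The size fell to less than 50% in 5 of the 16 genes whose groups did not overlap, CALR, SDF2L1, CRELD2, P4HB and SSR4, all of them lower in knockdown; for SSR4 the log2 change was -0.04, against -0.11 before. The genes at an unadjusted limma p under 0.05 were then JCHAIN, higher, and PDIA3 and SEL1L, lower. They made up 7.69% of the 39 genes, against 12.9% of all genes tested in the same fit. The median over the 39 genes stayed at 0.00.

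**Figure D4:**
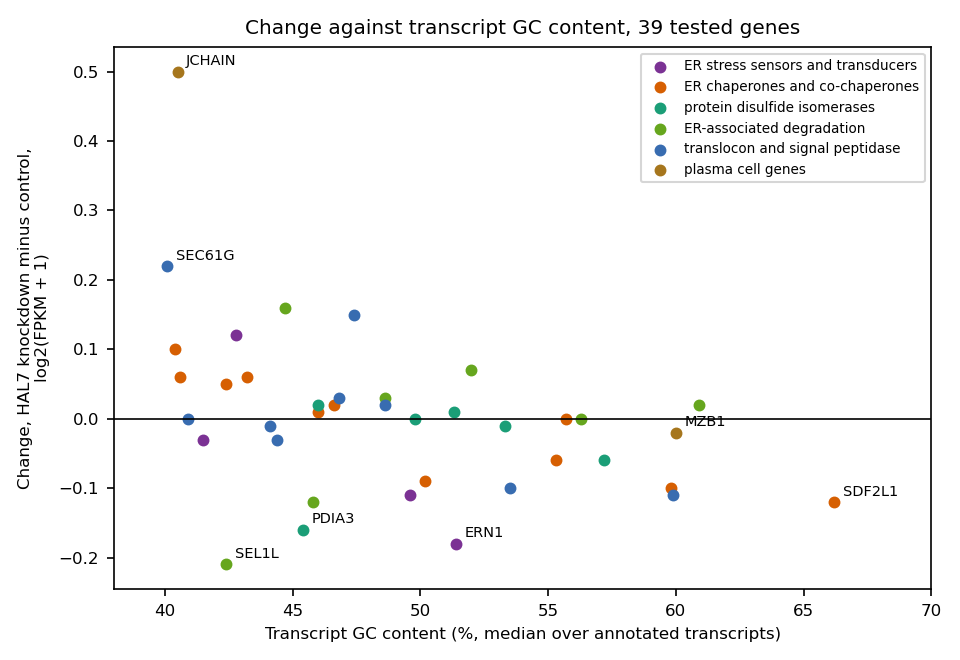
Change of the 39 tested genes (HAL7 knockdown minus control, log2(FPKM + 1)) against the median GC content of their annotated transcripts, coloured by role. Genes of low GC content tend to lie above 0 and genes of high GC content at or below it, with a Spearman rho of -0.44.

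Some values could hold reads of other genes. Exons of 23 of the 40 genes overlap an exon of another annotated gene on either strand, and for 14 of them that gene averaged at least 1 FPKM. Strand-specific counting is not stated. SYVN1 overlaps FAU, at 1257 FPKM on average, on the same strand, where strand-specific counting would not separate them. DERL3 overlaps SMARCB1, at 106 FPKM, on the opposite strand. JCHAIN overlaps ENAM, at 0.0567 FPKM, and SEC61G overlaps no other annotated exon.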

How the data were processed

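Polyadenylated RNA of 4 BLaER1 libraries was sequenced with the TruSeq mRNA kit, per the labels' protocols. The authors deposited 1 value per gene and library, read here as FPKM because, per the file headers, the ID column carries Cuffdiff's name and the values are not whole; Bowtie2 2.2.5, TopHat2 2.0.14 and Cuffdiff 2.2.1 with hg19 are named in the submitters' processing notes. No source used here gives the library scaling or the annotation. Symbols, positions (GRCh38), lengths and GC content came from GENCODE 29 and tables of current symbols; promoter windows came from RefSeq. Depth was read from 1214 genes with a single transcript of at least 2500 nt. Of low values of FPKM times length, 82.3% to 90.2% lay within 0.15 of a whole multiple of 1 step. By chance 30% would for a step fixed beforehand. The step of each library was chosen to fit these same values best, so the chance share is higher and was not computed.

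The 2 groups were compared by limma 3.58.1 in R 4.3.3. The fit used log2(FPKM + 1) and covered 12935 genes, those averaging 1 FPKM or more and HAL7, with a variance trend, a two-sided test and adjustment over all genes by Benjamini-Hochberg. The log2 scale understates changes of low genes, and ratios divide group means in FPKM. With 2 against 2 libraries an exact permutation test cannot go below 0.333. The fit was tested on simulated data, but only with changes larger than those of the 40 genes and without a GC trend. That test does not bear on changes as small as those reported here. The 40 genes and the lists were chosen with earlier results of these data known. All 40 are named; values are given in full for the 12 of smallest p and the most abundant of each role, and for up to 3 genes of smallest p under 0.05 per further list of the pathway. Genes named besides these, in their lists or as overlapping genes, were chosen after their values were seen. Alternatives were the replicate number as a block, removal of the GC trend, both together, quantile normalization, pseudocounts of 0.1 and 5, a 5 FPKM filter or none, an untrended variance, median centring, an adjusted p of 0.1 and leaving out each library, where the lone library is assumed to vary like the other group.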

Additional observations from a re-analysis of the deposited data

How the results depend on the processing

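Under every alternative run, 0 of the 40 genes passed an adjusted p of 0.05 in limma, and the smallest adjusted p among them was 0.084, for JCHAIN without knockdown replicate 0. Their count at an unadjusted p under 0.05, 2 in the fit reported, was 4 with quantile normalization (10.3%, against 16.6% of all genes) and ran from 1 to 6 when a library was left out: 4 without knockdown replicate 0 (10.3%, against 18.3% of all genes), 6 without knockdown replicate 1 (15.4%, against 14.8%), 2 without control replicate 0 (5.13%, against 11.3%) and 1 without control replicate 1 (2.56%, against 6.94%). Their median log2 change of 0.00 ran from -0.03 to 0.00 when a library was left out, and the lowest value came without knockdown replicate 0. With a library left out 21 of the 39 genes turned sign, such as DNAJB9 (-0.03 to 0.23), SPCS2 (-0.15 to 0.10), TXNDC5 (-0.07 to 0.10) and HSPA5 (-0.04 to 0.07). Among the genes given in full this held for PDIA6, whose log2 change ran from -0.01 (without knockdown replicate 1) to 0.04 when a library was left out, and for MZB1, which ran from -0.06 to 0.03 in the same way, on the positive side without knockdown replicate 0 and at 0.00 without control replicate 1, and was 0.05 with the GC trend removed, with or without the replicate block. Over all genes tested the count of 4 was 2 with a pseudocount of 0.1, 1 with a mean of at least 5 FPKM and 19 with the replicate block, and ran from 11 to 22 when a library was left out. Without a filter it was 0 in limma, with 3002 genes at an unadjusted p under 0.05. Deviations of same-numbered libraries from their group means correlated at 0.122 across genes, and the labels do not say that numbers pair libraries; with the replicate block 0 of the 40 genes passed and JCHAIN had a limma adjusted p of 0.11. The cause of these shifts was not tested. Depth is known only from value steps, so no counting intervals are given.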

Other observations

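Genes that carry cargo from the ER to the Golgi differed little between groups. Of 30 tested of 31 listed, 0 passed the adjusted p in limma, and the median log2 change was -0.01. At an unadjusted p under 0.05, 1 was lower (3.33%, against 9.35% of all genes tested) and 0 were higher (against 7.25%). The lower gene was KDELR1, the receptor that returns chaperones such as BiP to the ER, at 78.4 and 67.8 FPKM in knockdown and 81.6 and 87.3 FPKM in control libraries, with a limma adjusted p of 0.27. Its paralogue KDELR2 stood between 32.6 and 33.6 FPKM in all libraries. Among 7 tested partners of the IRE1 arm, 0 had an unadjusted p under 0.05, where 16.6% of all genes tested did. RTCB, the ligase that joins the XBP1 exons after IRE1 has cut them, stood at 51.0 and 53.7 FPKM in knockdown and 53.5 and 52.8 FPKM in control libraries. UGGT2, an ER folding sensor gene, was listed at 0 in all 4 libraries, while its paralogue UGGT1 stood at 17.6 and 16.1 FPKM in knockdown and 16.6 and 15.0 FPKM in control libraries.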
